A study of Homo sapiens with 41 samples.

Results

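The box H/ACA small nucleolar RNA (snoRNA) genes were examined for Elongin A occupancy in DLD1 cells. They were taken as the annotated snoRNA genes whose symbol is SNORA followed by a number and an optional letter, and a symbol was kept only when it occurred once in the annotation. This rule gave 56 genes of the 64486 annotated genes. They came from 398 SNORA loci with 111 symbols, of which 55 symbols occurred more than once and covered the other 342 loci. The 56 genes lay on 17 chromosomes and were 108 to 701 bp long with a median of 135 bp, and 47 of them were 100 to 150 bp long. SNORA73A was not in this set and was not analysed here.

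Elongin A is the transcriptionally active subunit of the Elongin complex, an RNA polymerase II elongation factor. It was mapped by chromatin immunoprecipitation (ChIP-seq) and by CUT&RUN, in which an antibody directs a nuclease to cut the DNA around the bound protein, and 7 of the 41 samples of the series entered the 3 peak lists used here. All 7 came from wild-type, formaldehyde-fixed cells of the human colorectal carcinoma line DLD1, with no siRNA and no drug. CUT&RUN with a goat antibody (2 replicates, set against goat IgG) gave 8720 peaks, CUT&RUN with a mouse antibody (1 sample, set against mouse IgG) gave 2338, and ChIP-seq (1 sample, set against input) gave 186. Each list gives 1 value per peak, so no spread between replicates could be computed, and the sequencing depth is unknown because no read totals are given. Of 10 colon epithelium marker genes, 6 had a goat antibody peak (EPCAM, CDH1, KRT8, KRT18, CDX2 and LGR5) and KRT19, VIL1, CDX1 and CDH17 had none, and 2 of 9 markers of other cell types had one (PTPRC and VWF), beside 21.4% of all protein-coding genes. Peaks are no measure of expression.

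H/ACA snoRNAs guide the conversion of uridine to pseudouridine in ribosomal and spliceosomal RNA. Each folds into hairpins joined by a hinge that carries the H box and followed by a tail with the ACA box, and each works in a particle with the pseudouridine synthase dyskerin and the proteins NHP2, NOP10 and GAR1. Most human H/ACA snoRNAs have no promoter of their own. They are released from an intron of a host gene after the host transcript has been made by RNA polymerase II, so that the DNA of such a gene is transcribed as part of its host.

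The sequences of the 8 H/ACA snoRNA genes near a goat antibody peak are shown in order of the fold enrichment of that peak, since the occupancy described below rests on them. They were read from hg19 on the strand of the gene, 5′ to 3′. Capitals mark a match to the H box, searched as ANANNA between 40% and 60% of the gene, and the ACA box, searched as ACA with exactly 3 bases after it.

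SNORA10 (host RPS2, chr16:2012335-2012467, minus strand): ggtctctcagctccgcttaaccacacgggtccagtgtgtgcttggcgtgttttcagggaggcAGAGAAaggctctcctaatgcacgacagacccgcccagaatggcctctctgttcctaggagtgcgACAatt

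SNORA73B (host SNHG3, chr1:28835071-28835274, plus strand): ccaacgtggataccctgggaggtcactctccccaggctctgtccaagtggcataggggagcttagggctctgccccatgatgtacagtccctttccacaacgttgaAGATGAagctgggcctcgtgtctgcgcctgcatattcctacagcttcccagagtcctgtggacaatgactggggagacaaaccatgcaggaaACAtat

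SNORA45 (host RPL27A, chr11:8706986-8707116, plus strand): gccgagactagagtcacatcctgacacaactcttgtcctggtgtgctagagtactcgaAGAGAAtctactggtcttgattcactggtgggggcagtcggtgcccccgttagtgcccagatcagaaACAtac

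SNORA6 (host RPSA, chr3:39449880-39450030, plus strand): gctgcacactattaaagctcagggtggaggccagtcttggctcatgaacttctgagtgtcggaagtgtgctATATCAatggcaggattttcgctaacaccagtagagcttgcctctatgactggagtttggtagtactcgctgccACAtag

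SNORA65 (host RPL12, chr9:130210780-130210909, minus strand): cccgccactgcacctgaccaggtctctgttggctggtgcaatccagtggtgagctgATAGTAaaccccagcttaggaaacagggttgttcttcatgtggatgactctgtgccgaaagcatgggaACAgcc

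SNORA84 (host IARS1, chr9:95054743-95054875, minus strand): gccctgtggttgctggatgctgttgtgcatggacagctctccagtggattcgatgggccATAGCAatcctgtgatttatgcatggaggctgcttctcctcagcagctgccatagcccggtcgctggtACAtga

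SNORA13 (host EPB41L4A-AS1, chr5:111497182-111497314, plus strand): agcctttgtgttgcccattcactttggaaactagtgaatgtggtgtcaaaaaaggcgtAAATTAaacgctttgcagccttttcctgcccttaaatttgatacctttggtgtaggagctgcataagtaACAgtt

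SNORA55 (host PABPC4, chr1:40033046-40033180, minus strand): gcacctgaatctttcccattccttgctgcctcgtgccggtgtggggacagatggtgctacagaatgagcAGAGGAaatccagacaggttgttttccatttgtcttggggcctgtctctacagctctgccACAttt

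All 8 genes held both letter patterns. Over the 56 genes, 38 (67.9%) had an ACA followed by exactly 3 bases and 47 (83.9%) an H box match in the middle. With an ACA anywhere in the last 10 bases the count was 50 (89.3%). The same searches matched 3 (2.61%), 19 (16.5%) and 9 (7.83%) of 115 box C/D snoRNA genes chosen by the same rule on SNORD symbols, which belong to the other large snoRNA class and guide ribose methylation. The label of the genes as H/ACA snoRNAs was thus borne out by their letters. A match is a string of letters only, and the 6 genes without an ACA near the end were kept.

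Of the 56 H/ACA snoRNA genes, 8 had a goat antibody peak within 500 bp, which is 14.3% (Wilson 95% interval 7.42 to 25.7%, counting error only). The same was true of 9.36% of all annotated genes, a share inside that interval, of 5.28% of all snoRNA genes and of 1.63% of all genes of at most 300 bp, which are closer to the members in size. Most H/ACA snoRNA genes therefore had no Elongin A peak beside them. The share was lower than among the box C/D genes, where 42 of 115 (36.5%, 28.3 to 45.6%) had a peak. Since snoRNA genes of a host share its peaks, the hosts were also counted once each, which gave 8 of 45 hosts (17.8%, 9.29 to 31.3%) with a peak near an H/ACA gene and 24 of 64 (37.5%, 26.7 to 49.7%) with a peak near a box C/D gene, and these intervals overlapped. The 342 SNORA loci with repeated symbols stood at 4.97% (3.13 to 7.82%). These differences in share were not tested.

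**Figure D1:**
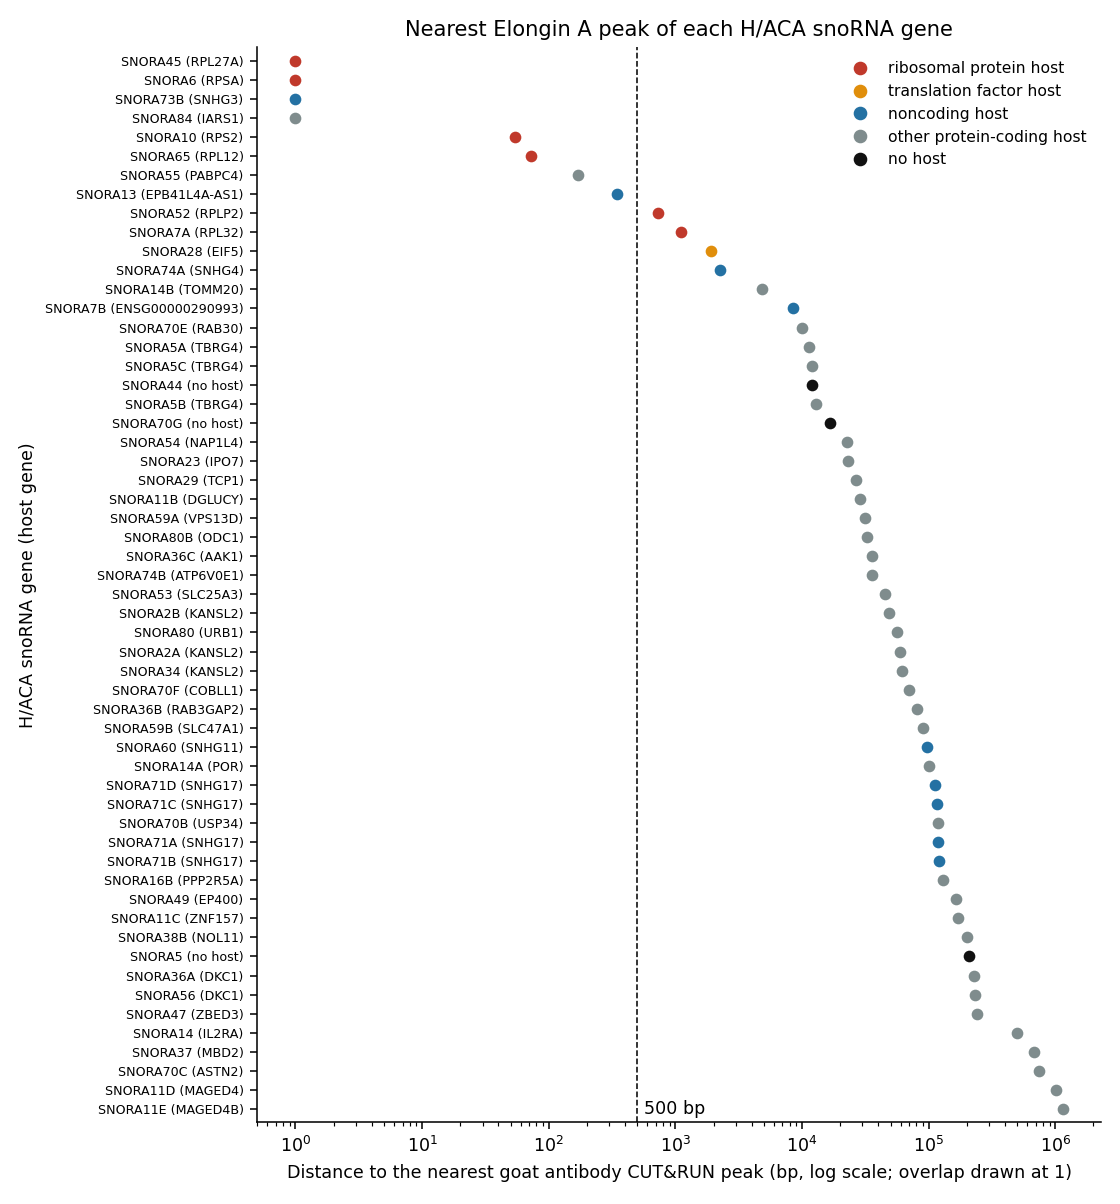
Each point is 1 of the 56 H/ACA snoRNA genes, and the horizontal axis gives the distance in bp (log scale) to its nearest goat antibody CUT&RUN peak, with overlaps drawn at 1 bp; colors give the class of the host gene named in parentheses. Left of the dashed 500 bp line lie 8 points, 4 of them in ribosomal protein hosts, and most genes in other protein-coding hosts lie beyond 10 kb.

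The distances of the other 48 genes covered a wide range. Another 6 lay between 500 bp and 10 kb from the nearest goat antibody peak, 23 between 10 and 100 kb and 19 over 100 kb, and the median over all 56 genes was 40443 bp. The gene just inside the limit was SNORA13, 344 bp from its peak. The gene just outside it was SNORA52 in RPLP2, a gene of the ribosomal stalk, at 730 bp from a peak with a fold enrichment of 4.83. SNORA7A in RPL32 followed at 1109 bp (fold enrichment 7.34), SNORA28 in the translation factor gene EIF5 at 1919 bp (6.57) and SNORA74A in SNHG4 at 2251 bp (4.15). RPLP2 and RPL32 are ribosomal protein genes, as are 4 of the hosts inside the limit, and SNHG4 is a noncoding host like SNHG3.

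The fold enrichment of a peak is its signal at the summit over the local control background, as the peak caller gave it. The q-value is the p-value at the summit after the peak caller's correction for multiple testing. The 8 peaks ran from 2.81 to 14.8, with a median of 5.83 against 4.32 for the whole goat antibody list, and 6 of the 8 were above the list median. They were also wide. Their median width was 1072 bp against 362 bp for the list, and 4 of the 8 were at least 1 kb wide against 4.51% of the list. Choosing peaks by the distance to their nearest base favors wide ones, and the part of this choice in the contrast was not tested.

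The strongest was at SNORA10, in the last intron of RPS2, which encodes a protein of the small ribosomal subunit. The peak ran over chr16:2010559-2012281 with a fold enrichment of 14.8 (−log10 q-value 35.7) and ranked 16 of 8720. It ended 54 bp from SNORA10 without touching it, and its summit was 711 bp past the nearest annotated end of RPS2. The convergent gene NDUFB10, which encodes a subunit of respiratory complex I, held the summit, so the peak cannot be assigned to RPS2 alone. RPS2 had another goat antibody peak, with a fold enrichment of 3.47, inside the gene. Only 21.6% of the 32-bp words of SNORA10 occurred once in the genome, whereas the word at the peak summit did.

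SNORA73B, also known as U17b, belongs to a pair of H/ACA snoRNAs that act in the processing of 18S ribosomal RNA. It lies in the last intron of SNHG3, a noncoding host gene, and the wider gene RCC1, which encodes the exchange factor of the GTPase Ran, covers the same strand. The goat antibody peak at chr1:28833562-28839545 was 5984 bp wide, had a fold enrichment of 13.3 (−log10 q-value 67.2), ranked 27 of 8720 and covered the whole of SNORA73B. Its summit lay 2024 bp downstream of the center of SNORA73B, in the last exon of SNHG3 and 208 bp before its nearest end. SNORA73B was thus inside a broad peak whose highest point was elsewhere in the host. SNHG3 also had a goat antibody peak over its start, with a fold enrichment of 3.77 and a summit 6 bp upstream of the transcription start site (TSS) of its canonical transcript.

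SNORA45 and SNORA6 were also covered in full. SNORA45 lies in intron 4 of RPL27A, a gene of the large ribosomal subunit, and its peak at chr11:8705494-8710883 had a fold enrichment of 7.61 (−log10 q-value 31.7) and a width of 5390 bp. The same peak covered SNORA3, another H/ACA snoRNA locus in RPL27A, and its summit was 2778 bp downstream of the center of SNORA45. SNORA6 lies in intron 2 of RPSA, which encodes a protein of the small subunit, and its peak at chr3:39448673-39451203 had a fold enrichment of 6.32 (−log10 q-value 10.9) and a width of 2531 bp. The summit, 207 bp downstream of the center of SNORA6, fell in the next exon.

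The other 4 peaks were narrower, at 221 to 421 bp. At SNORA65, in RPL12 of the large subunit, a peak of fold enrichment 5.35 (−log10 q-value 5.84) began 73 bp downstream. At SNORA84, in the first intron of IARS1, the isoleucyl-tRNA synthetase gene, a peak of 4.83 (−log10 q-value 3.65) covered 83.5% of the snoRNA gene and had its summit 964 bp from the TSS. At SNORA13, in the noncoding gene EPB41L4A-AS1, a peak of 3.95 (−log10 q-value 3.33) lay 344 bp upstream in an exon. At SNORA55, in PABPC4, which encodes a cytoplasmic poly(A)-binding protein, the peak of 2.81 (−log10 q-value 2.27) was among the lowest of the list at rank 8339. SNORA84 was the only member among these 4 that its peak touched. The summits at SNORA13 and SNORA55 also lay within genes on the opposite strand, EPB41L4A and PABPC4-AS1.

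Across the 8 peaks, 4 overlapped the snoRNA gene, 6 had the summit downstream of its center in the direction of transcription, and 0 had the summit inside it. The summit fell in an exon of the host at 4 peaks, in an intron at 3 and outside the canonical transcript at 1. Within 1 kb of any annotated TSS of the host lay 5 of the 8 summits, but only 2 lay within 1 kb of the TSS of the canonical transcript (SNORA84 and SNORA13). The highest signal near these genes was thus not centered on the snoRNA and, for 6 of the 8, was not within 1 kb of the start of the canonical transcript. The 32-bp word at each of the 8 summits occurred once in the genome.

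**Figure D2:**
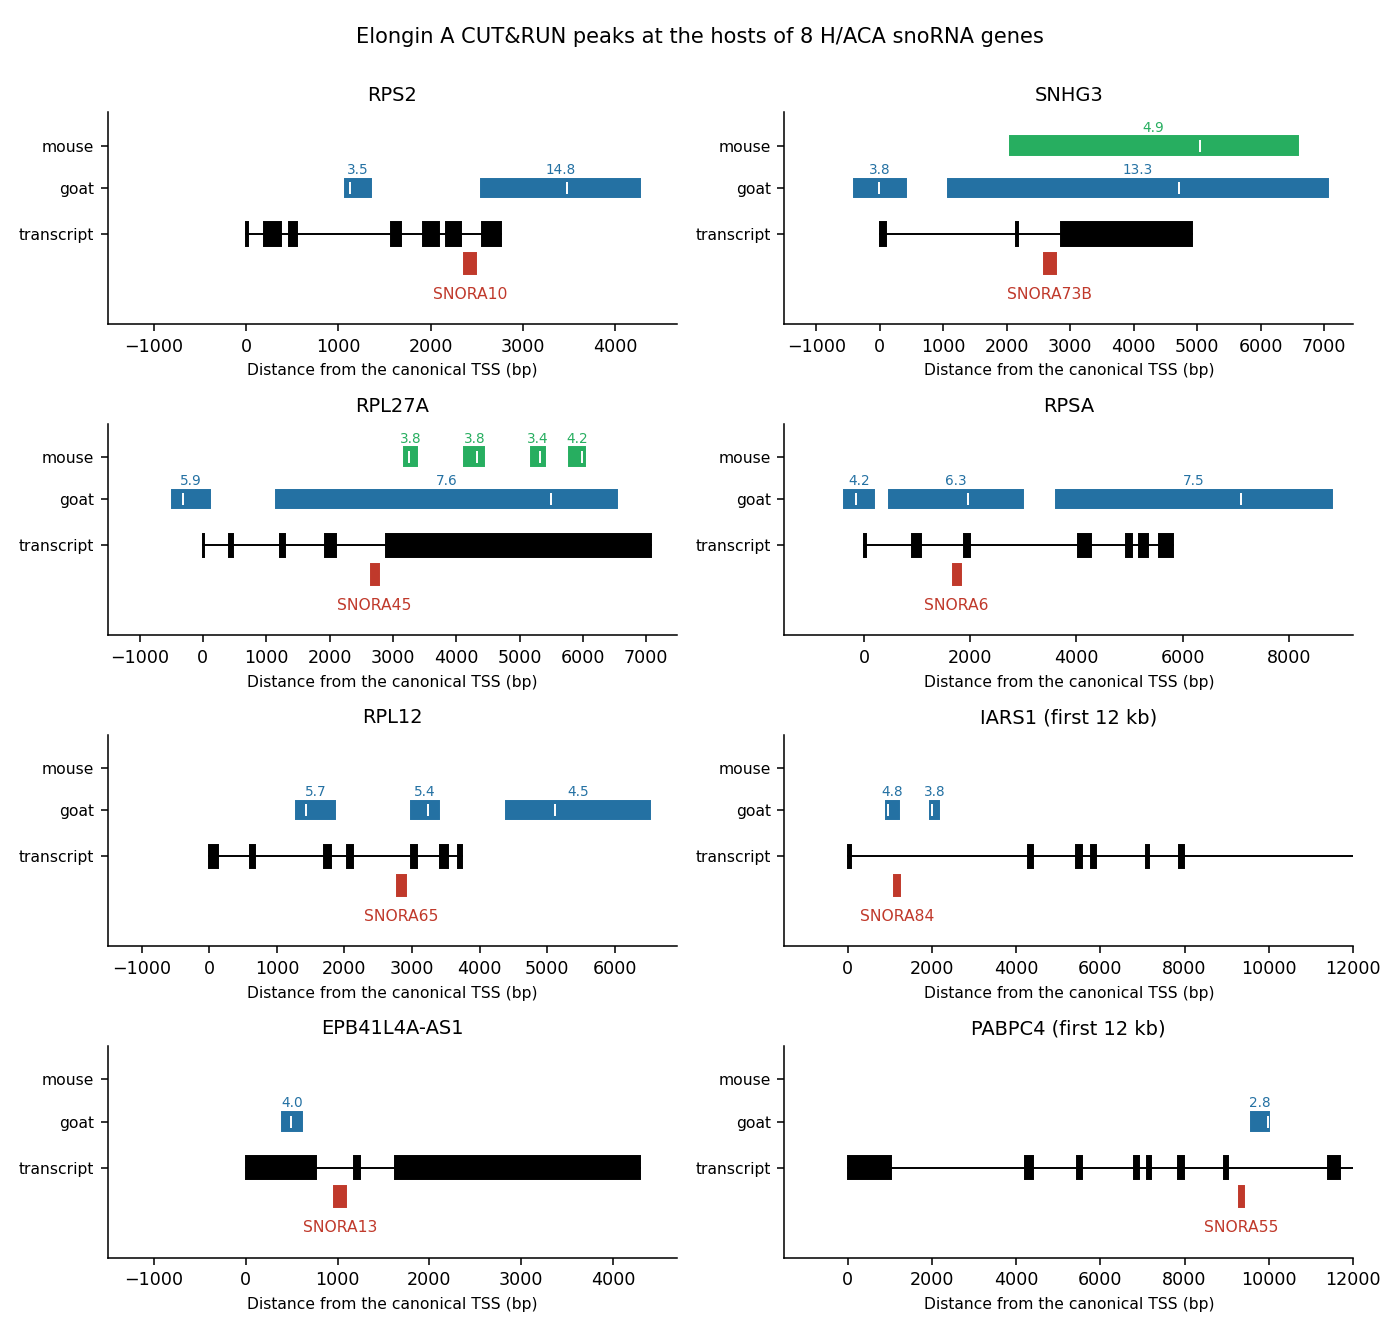
Maps of the 8 host genes with a peak within 500 bp of an H/ACA snoRNA gene, in bp from the TSS of the canonical transcript in the direction of transcription: exons (black boxes), the snoRNA gene (red), goat antibody peaks (blue) and mouse antibody peaks (green), with the summit as a white tick and the fold enrichment above each peak. Wide peaks cover SNORA73B, SNORA45 and SNORA6 and run on past them, and the summits lie outside the red boxes.

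In the mouse antibody list 2 of the 56 genes (3.57%, 0.985 to 12.1%) had a peak within 500 bp, beside 3.33% of all genes. These were SNORA73B, covered by a peak of 4536 bp with a fold enrichment of 4.87, and SNORA45, 400 bp from a peak of 212 bp with a fold enrichment of 3.82. Both also had a goat antibody peak, which makes 3.57% of the members with both antibodies beside 1.96% of all genes. The shares were thus near those of all genes. Among box C/D genes 5 of 115 (4.35%, 1.87 to 9.78%) had a mouse antibody peak. At SNHG3 the summits of both antibodies lay downstream of the snoRNA, the goat antibody summit at 4704 bp and the mouse antibody summit at 5041 bp from the canonical TSS.

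The ChIP-seq list had a peak within 500 bp of 0 of the 56 genes, which allows a share of up to 5.36%, beside 0.364% of all genes. The closest ChIP-seq peak was 139656 bp from SNORA73B. With 186 peaks in that list, a share as low as that of all genes could not have been detected among 56 genes.

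Occupancy by host class was as follows. All of the 53 genes with a host on their strand lay in an intron of its canonical transcript, and 3 (SNORA44, SNORA5 and SNORA70G) had no such host. A peak of the goat antibody lay within 500 bp of 4 of the 6 genes in ribosomal protein hosts (66.7%, 30.0 to 90.3%), of 2 of 9 in noncoding hosts (22.2%, 6.32 to 54.7%) and of 2 of 37 in other protein-coding hosts (5.41%, 1.5 to 17.7%). The single gene in a translation factor host and the 3 without a host had none. IARS1 and PABPC4 were the hosts in the class of other protein-coding genes, and SNHG3 and EPB41L4A-AS1 in the noncoding class. Box C/D genes gave 27 of 37 (73.0%) in ribosomal protein hosts, 5 of 14 (35.7%) in noncoding hosts and 9 of 50 (18.0%) in other protein-coding hosts. The order of the classes was the same, and within each class the intervals of H/ACA and box C/D genes overlapped. These class shares count each snoRNA gene, not each host, so the intervals treat genes of the same host as independent. SNHG17 held 4 of the 9 genes in noncoding hosts. TBRG4 and KANSL2 held 3 each and DKC1 held 2 of the 37 in other protein-coding hosts. Ribosomal protein genes hosted 6 of the 56 H/ACA genes and 37 of the 115 box C/D genes.

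Host length moved with occupancy as well, and its part in the difference between host classes was not tested. Among hosts under 10 kb 4 of 10 members (40%, 16.8 to 68.7%) had a goat antibody peak within 500 bp, among hosts of 10 to 50 kb 3 of 25 (12%, 4.17 to 30.0%) and among longer hosts 1 of 18 (5.56%, 0.988 to 25.8%). The neighboring intervals overlapped, and they treat members of the same host as independent. The hosts with more than 1 member (SNHG17, TBRG4, KANSL2 and DKC1) were all of 10 to 50 kb. The hosts had a median length of 10497.5 bp for the 8 members with a peak and 26601 bp for the others. Host length here is the span of the whole gene over all its annotated transcripts. RPSA (19540 bp) and RPL27A (31972 bp) have canonical transcripts of 5823 and 7081 bp, which are under 10 kb. The bins were not recounted by canonical length. Distance was also taken to the nearest TSS of any annotated host transcript. Of the members within 2 kb of it, 7 of 34 (20.6%) had a peak, of those at 2 to 10 kb 1 of 11 (9.09%), and of those farther away 0 of 8. Within 2 kb of the canonical TSS, the members with a peak were SNORA6, SNORA13 and SNORA84 (1025 to 1744 bp). Those without one were SNORA14B, SNORA80B, SNORA7A, SNORA52 and SNORA71D (967 to 1780 bp). SNORA55 was 76 bp from the nearest TSS but 9349 bp from the canonical one.

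The genes also divided by the form of their symbol. A trailing letter usually marks related copies of a snoRNA, and 33 of the 56 symbols had one. Of these, 1 gene (SNORA73B) had a goat antibody peak within 500 bp (3.03%, 0.537 to 15.3%), against 7 of the 23 whose symbol ended in a number (30.4%, 15.6 to 50.9%). Several of the genes with a letter share a host. With each host counted once, the counts were 1 of 27 (3.70%, 0.657 to 18.3%) and 7 of 23, whose intervals overlapped, and the difference was not tested. Members with few single-copy words were in both groups. SNORA11D, SNORA11E and SNORA59A had no 32-bp word that occurred once in the genome. A peak was near 6 of the 39 members with at least 90% single-copy words (15.4%), close to the share of all members.

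**Figure D3:**
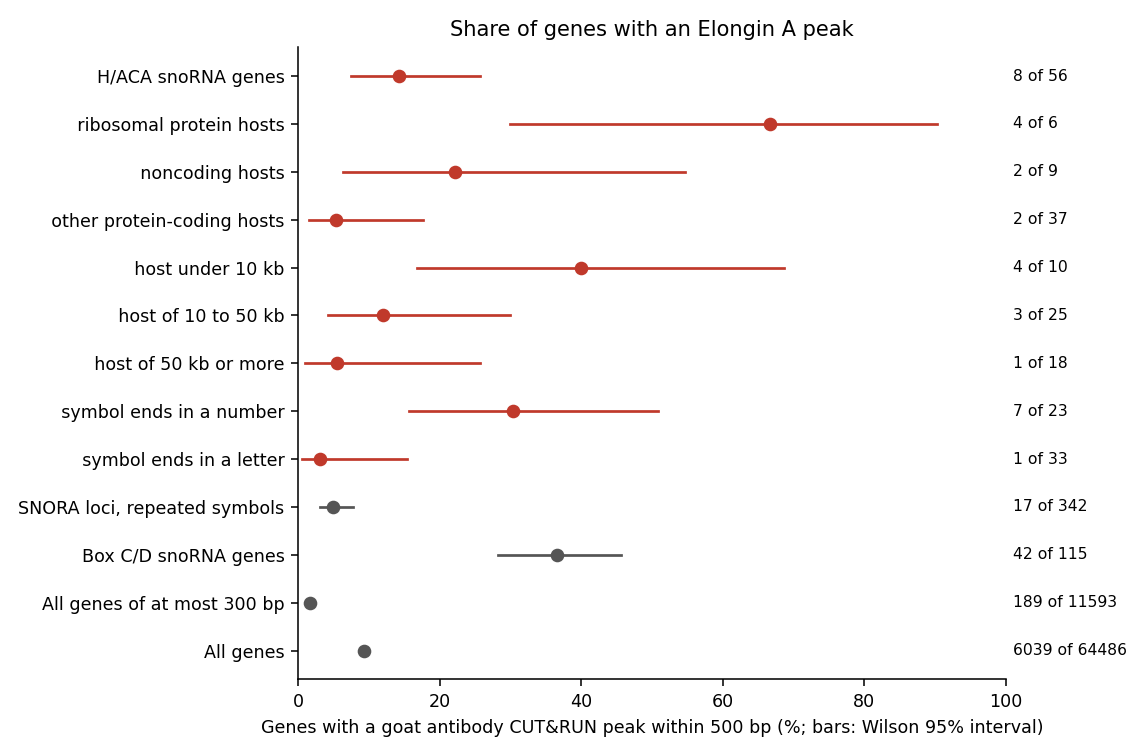
Share of genes with a goat antibody CUT&RUN peak within 500 bp, with Wilson 95% intervals as bars and the counts at the right; red, the H/ACA snoRNA genes and their subgroups by host class, host length and symbol; gray, other gene groups. The share was 14.3% over all H/ACA snoRNA genes, 66.7% in ribosomal protein hosts and 36.5% among box C/D genes.

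The hosts that carried the most H/ACA snoRNA genes had no peak. TBRG4, which acts in mitochondrial RNA processing, held SNORA5A, SNORA5B and SNORA5C. KANSL2, of the NSL histone acetyltransferase complex, held SNORA34, SNORA2A and SNORA2B. The noncoding SNHG17 held SNORA71A to SNORA71D. None of these 3 hosts, with 10 members in all, had a peak in any of the 3 lists, but the same was true of 21 of the 45 hosts. Their members were 11360 to 121556 bp from the nearest goat antibody peak. DKC1, the gene of dyskerin itself, held SNORA36A and SNORA56 and had no peak either, with the nearest goat antibody peak 226530 bp from SNORA36A. The other 41 of the 45 hosts carried 1 member each.

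The hosts were then counted as genes. A host was called occupied when the center of a peak lay in its promoter (from 1000 bp before to 100 bp after a TSS), its body or the window around its end (from 100 bp before to 1000 bp after). By the goat antibody list 24 of the 45 hosts (53.3%, 39.1 to 67.1%) were occupied, beside 21.4% of all protein-coding genes and 8.27% of all long noncoding RNA genes. The share was 20 of 39 (51.3%) for protein-coding and 4 of 6 for noncoding hosts. A host window contains its members and is much wider than 500 bp around a member, so the host shares are not comparable with those of the snoRNA genes. With the peaks near members left out, 22 of 45 hosts (48.9%) remained occupied. By the mouse antibody list 6 of 45 (13.3%, 6.26 to 26.2%) were occupied beside 7.70% of protein-coding genes. By ChIP-seq 1 was, VPS13D, with a promoter peak of fold enrichment 16.7, beside 0.783%.

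All 6 ribosomal protein hosts were occupied by the goat antibody list, and so were 61 of the 81 ribosomal protein genes that host no member (75.3%, 64.9 to 83.4%). These 81 include hosts of SNORA loci with repeated symbols, such as RPL5 (SNORA66) and RPS12 (SNORA33). Of the hosts of box C/D genes, 47 of 64 (73.4%, 61.5 to 82.7%) were occupied, an interval that overlaps that of the H/ACA hosts. The promoter window alone held a goat antibody peak center in 8 of the 45 hosts (17.8%), beside 8.97% of protein-coding genes. The goat antibody peaks at the 45 hosts numbered 43 in all. EIF5 had 4 of them, up to a fold enrichment of 6.57, although none was within 500 bp of SNORA28. Occupied hosts held 24 members, of which 8 had a peak within 500 bp, and for the other 16 the nearest goat antibody peak was at a median of 22832 bp, with 5 of them within 5 kb of one.

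Introns that hold an H/ACA snoRNA gene were set beside the other introns of the same hosts. A goat antibody peak overlapped 10 of the 52 introns with a member (19.2%, 10.8 to 31.9%) and 29 of 616 other introns (4.71%, 3.30 to 6.68%), beside 2.25% of all introns of canonical transcripts. The introns were pooled over hosts without pairing within a host, and the intervals treat them as independent. Long hosts with many introns, such as USP34 with 79 and VPS13D with 69, therefore weigh heavily among the others. In RPSA, RPL27A and SNHG3 the introns without a member had peaks too. The other introns are not free of SNORA loci, because some hold loci with repeated symbols, which are not members. Peaks covered 2 of these from end to end, intron 4 of RPSA (SNORA62) and intron 3 of RPL27A (SNORA3). Intron 2 of SNHG4 (SNORA74) was covered in part, and intron 4 of RPS2 (SNORA64) had no peak. The part of host composition in the difference was not tested. Introns with a member were longer, with a median of 2614 bp against 1312 bp. Their median intron number was 4 against 11. Pooled over hosts, this number gives no position within a gene, since hosts with many introns raise it among the others. Per kb of intron the peaks covered 11.3 bp in introns with a member and 4.74 bp in the others. Among introns of 300 to 3000 bp only, 5 of 26 with a member (19.2%, 8.51 to 37.9%) and 4.12% of the others had a peak. The parts of intron length and intron number in the difference were not tested.

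Without first introns, 6 of 40 introns with a member (15%, 7.06 to 29.1%) and 22 of 583 others (3.77%, 2.51 to 5.65%) had a peak. These 6 were the introns of SNORA73B, SNORA45, SNORA6, SNORA55, SNORA65 and SNORA10. The peaks covered the first 3 of them from end to end, whereas in the introns of SNORA65 and SNORA10 they reached only 5 and 10 bp into the intron. Counted by summits, the introns with a member had 1.86 per 100 kb and the others 0.667, but without first introns the values were 0.524 (1 summit, at PABPC4) and 0.606 (14 summits). The higher share by overlap was thus not matched by summits once first introns were left out.

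**Figure D4:**
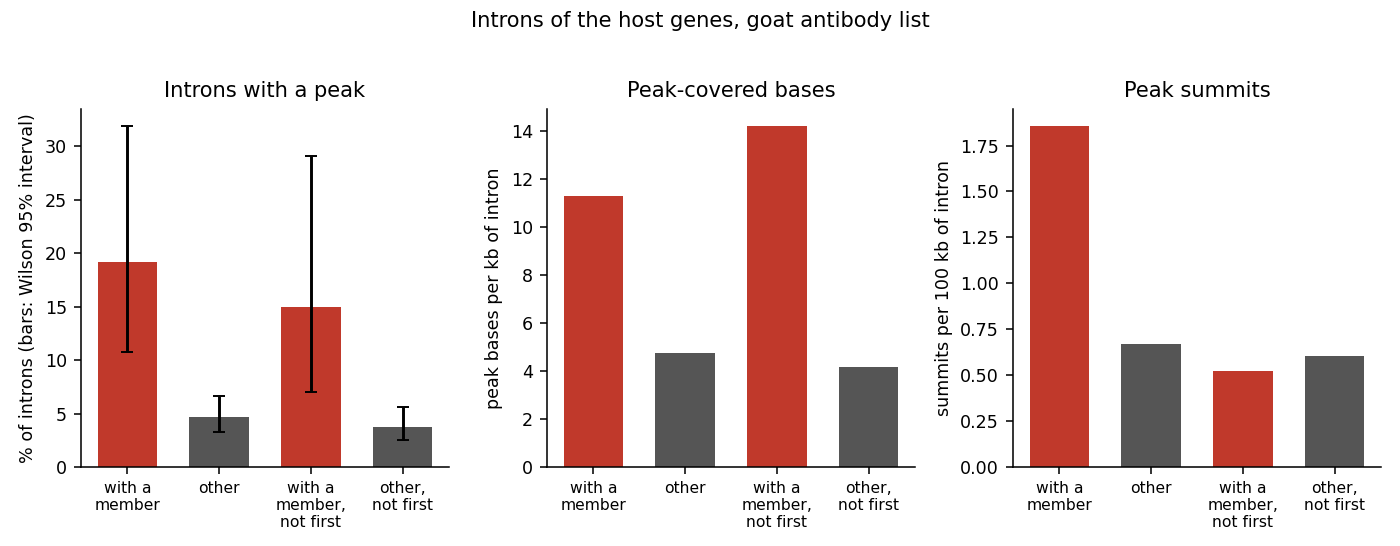
Introns of the canonical transcripts of the 45 hosts, with a member (red) or without (gray), all introns and without first introns, by the goat antibody list: the percentage that a peak overlapped (bars, Wilson 95% intervals), peak bases per kb, and summits per 100 kb. Introns with a member were higher by overlap and by covered bases (11.3 against 4.74 bp per kb), while summits per 100 kb were 0.524 against 0.606 without first introns. Introns were pooled over hosts.

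Genes of the H/ACA particle and its assembly were counted as a list of 13. The goat antibody list occupied 5 of them, beside 21.4% of all protein-coding genes. By the mouse antibody list 2 were occupied, beside 7.70% of protein-coding genes, and by the ChIP-seq list 0, beside 0.783%. RUVBL2, an ATPase that acts in snoRNP assembly, had a promoter peak with a fold enrichment of 10.6 by the goat antibody and 4.85 by the mouse antibody. NOLC1, which encodes the snoRNP-binding protein Nopp140 of nucleoli and Cajal bodies, had 5 goat antibody peaks of up to 5.49 and a mouse antibody peak of 5.83. SHQ1, an assembly factor, WRAP53, a Cajal body targeting factor, and RUVBL1, the partner of RUVBL2, had 1 goat antibody peak each, at 3.47, 3.46 and 2.89. The genes of the core proteins, DKC1, NHP2, NOP10 and GAR1, had none in any list, and neither did NAF1, TCOF1, NUFIP1 or TERC, the telomerase RNA gene with an H/ACA domain. By the shares above, most protein-coding genes had no peak either.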

How the data were processed

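Elongin A was mapped in 7 samples of DLD1 cells. Read pairs were mapped by the authors with Bowtie2 against hg19, PCR duplicates were discarded, and MACS2 called peaks with its defaults. The paper's methods name goat IgG as the CUT&RUN control, and the labels add mouse IgG. How the 2 goat antibody replicates were combined is not given in the sources used here. In the deposited lists the fold enrichment is a ratio over local control background, and the −log10 q-value comes from the authors' run of MACS2, with q-values below 0.05. The deposited score restates the q-value and was not used.

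Positions are 1-based. The annotation was GENCODE release 44, lifted to hg19. The host was the shortest named protein-coding or long noncoding gene that contains the snoRNA gene on its strand. SNORA7B, with no named one, was given an unnamed long noncoding gene (ENSG00000290993). RefSeq on GRCh38.p14, used for names and neighbors only, gave the same host for 48 of the 56 genes, no entry for 5 and another neighbor for 3, SNORA44 (SNHG12), SNORA7B (RPL32P3) and SNORA70G (RAP1B). Distances were taken to the nearest base of a peak. Copies of 32-bp words were counted on both strands. Shares have Wilson 95% intervals, and a count of 0 was read as an upper limit of 3 counts. No significance test was run, since the lists have no replicate values. The search for peaks near genes and the word counts were tested on simulated data with planted peaks and words and gave the known answers. Gene occupancy was counted in another way for a sample of genes on the real goat antibody list, with the same result. Host assignment and the intron counts were not checked in these ways.

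The members and lists were chosen with earlier results of these data known. The text names the members with the strongest goat antibody peaks (at most 10), all with a mouse antibody or ChIP-seq peak, hosts with 3 or more members, SNORA73A and SNORA73B, the members nearest the 500 bp limit, and the particle and marker lists, of which PECAM1 was not matched. VPS13D, EIF5, SNORA7A, SNORA28, SNORA74A and members named for their copy number, and counts by symbol form with each host counted once, were chosen after their values were seen. Alternatives were stricter q-values and fold enrichments, other distances, overlaps and summits, repeated symbols, merged loci, single-copy members, other host and TSS choices and other sets of introns. The RNA-seq, 4sU-seq and RNA polymerase ChIP-seq samples were not analysed here. Python 3.11.15, numpy 2.4.6, scipy 1.17.1, pandas 2.3.3, pysam 0.24.0, samtools 1.23.1 and matplotlib 3.10.9 were used.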

Additional observations from a re-analysis of the deposited data

How the results depend on the processing

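Of 70 values recomputed under other settings for 7 results, 58 stayed within the interval of the value reported, among them the 12 ChIP-seq values, all at 0, and 12 moved outside it. The 14.3% of H/ACA snoRNA genes with a goat antibody peak became 7.14% (4 genes) when the peak had to overlap the gene and 7.14% when the summit had to lie within 500 bp, both stricter by construction, and 6.28% (25 of 398) over all SNORA loci, of which the cause was not tested. The last value (4.29 to 9.11%) is below the 9.36% of all annotated genes, whereas 14.3% is above it. A fold enrichment of at least 5, which 30.1% of all goat antibody peaks reached, left 5 genes (8.93%). With the mouse antibody, or with both antibodies, that setting left 0%, and so did summits within 500 bp for both antibodies. The shares of all genes under the fold enrichment, overlap and summit settings are not given here, so these values have no base share beside them. Occupied hosts fell from 53.3% to 26.7% with a fold enrichment of at least 5, where fewer peaks remain. With the promoter window alone they fell to 17.8%, beside 8.97% of all protein-coding genes. Summits within 1 kb of a host TSS (62.5%) became 25.0% for the canonical transcript, 12.5% within 500 bp and 87.5% within 2 kb. Introns with a member and a peak (19.2%) became 9.62% by summits, beside 2.60% of other introns. The subset with the same host in RefSeq, chosen after seeing the data, gave 14.6% for the goat antibody.

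No paired analysis was possible because each list gives 1 value per peak and no result comes from a test. Leaving out a replicate was not run, since the goat antibody list has no column per replicate. The unknown depth limits what an absent peak shows.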

Other observations

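Of the 342 SNORA loci whose symbols occur more than once, 17 (4.97%) had a goat antibody peak within 500 bp, beside 9.36% of all annotated genes. They had 15 symbols in 13 hosts, and 9 of the 17 were in ribosomal protein hosts. How many of all 342 loci lie in such hosts is not given here, so the 9 cannot be set against a base share. The strongest was at EIF4A2, a gene of the translation initiation helicase, where a peak with a fold enrichment of 21.0 was near SNORA63 (2 loci), SNORA81 and SNORA4. SNORA75 in NCL, the nucleolin gene, followed at 17.6, then SNORA33 in RPS12 at 8.62, SNORA3 in RPL27A at 7.61 and SNORA62 in RPSA at 7.49. A mouse antibody peak was near 4 of the 342 loci (1.17%), beside 3.33% of all genes, and a ChIP-seq peak near 0, beside 0.364%. These genes were named after their values were seen.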
